A study of Drosophila melanogaster with 384 samples.

Results

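The nicotinic acetylcholine receptor (nAChR) family of Drosophila melanogaster comprises 10 subunit genes, nAChRalpha1 to nAChRalpha7 and nAChRbeta1 to nAChRbeta3. Their chromatin accessibility was examined in cells sorted from the eye-antennal disc. The study assigned these cells to the morphogenetic furrow and to R8 photoreceptors. A region was assigned to a subunit gene when it overlapped the gene or lay within 5 kb upstream of its transcription start site (TSS) in the release 6 annotation. This gave 0.403% of the 68775 listed regions, namely 41, 8, 55, 46, 36, 59 and 17 regions for nAChRalpha1 to nAChRalpha7 and 5, 6 and 4 for nAChRbeta1 to nAChRbeta3, and no region fell in the windows of 2 subunit genes. A region within 500 bp of a TSS is called a promoter region here and any other region is called distal. Accessibility is given as the counts summed over cells per kb of listed region.

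The cells were sens-GFP+ cells of a single-cell ATAC-seq experiment, in which the Tn5 transposase inserts adapters into open DNA, run on the Fluidigm C1 microfluidic system. The strain is labelled F2-B(sens)-GFP with the genotype w;F2-B/CyO. F2-B is an enhancer in an intron of senseless (sens) that Atonal targets, so GFP marks cells in which it is active. A pool of 200 eye-antennal discs from wandering third-instar larvae, with flies raised at 25 °C, was dissociated with trypsin at 37 °C for 1 h, and sorted for GFP-positive, propidium iodide-negative cells. The labels give 1 group with no second sort, no GFP-negative cells and no animal or sex per cell, so the cells are not replicates. No p-value was computed, and every interval is a 95% interval that covers counting error only, with counts taken as independent. The table held 72 cells with 908 to 5892 counts in listed regions (median 2694.5) and 197425 counts in all. Markers of R8 and the morphogenetic furrow had a median of 5.05 counts per kb over 6 genes and markers of photoreceptors 6.14 over 3 genes, against a median of 2.81 over the 13657 protein-coding genes with a listed region. The 2 glia, 3 hemocyte and 2 adepithelial myoblast markers had medians of 2.08, 1.94 and 2.38. Single markers crossed this order, since the hemocyte gene Hml had 5.14 and the R8 and furrow genes boss and ato had 1.79 and 2.24. No member of these marker lists was at 0, and the part of other cell types in the values below was not tested.

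Nicotinic receptors are pentameric cation channels that open when acetylcholine binds between subunits. Alpha subunits carry a pair of adjacent cysteines in the binding loop and beta subunits lack it. In insects these receptors carry most fast excitatory transmission of the central nervous system, and they are the target of neonicotinoid and spinosyn insecticides. Photoreceptors of the fly signal with histamine, and many of the neurons downstream of them use acetylcholine. The F2 enhancer of sens is active at the morphogenetic furrow, where differentiation sweeps across the eye disc, and in young R8 photoreceptors, before these cells form synapses.

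The DNA just upstream of 4 of these TSS illustrates the range of values at the gene starts. The regions over the TSS of nAChRalpha3 and nAChRalpha6 had the most counts of all TSS regions of the family, 9 and 8, while those of nAChRalpha1 and nAChRalpha2 had 3 and 1. Other TSS regions were as low, with 1 count at nAChRalpha7, 2 at nAChRbeta2 and 3 at nAChRalpha5 and at the first TSS of nAChRalpha4. The 4 sequences are therefore examples and do not stand for all TSS with many or few counts. Each sequence is the 250 bases upstream of the TSS, read 5′ to 3′ on the coding strand from the RefSeq release 6 genome. The positions are X:8367170-8367419 (minus strand) for nAChRalpha3, 2L:9886251-9886500 (minus) for nAChRalpha6, 3R:24457158-24457407 (minus) for nAChRalpha1 and 3R:24485178-24485427 (plus) for nAChRalpha2. Capitals mark GAGAG or its reverse complement CTCTC, the core bound by GAGA factor, and the E-box CAGCTG.
nAChRalpha3: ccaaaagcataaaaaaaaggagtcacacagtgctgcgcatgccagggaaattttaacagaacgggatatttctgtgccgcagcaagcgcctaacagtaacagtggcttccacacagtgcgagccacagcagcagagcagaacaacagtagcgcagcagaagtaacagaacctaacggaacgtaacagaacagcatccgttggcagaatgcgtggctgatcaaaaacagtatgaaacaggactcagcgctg
nAChRalpha6: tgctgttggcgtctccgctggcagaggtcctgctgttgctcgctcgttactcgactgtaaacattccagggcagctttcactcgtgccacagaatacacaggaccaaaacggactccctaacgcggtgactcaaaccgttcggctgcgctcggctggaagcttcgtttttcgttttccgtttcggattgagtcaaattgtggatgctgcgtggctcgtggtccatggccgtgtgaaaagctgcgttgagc
nAChRalpha1: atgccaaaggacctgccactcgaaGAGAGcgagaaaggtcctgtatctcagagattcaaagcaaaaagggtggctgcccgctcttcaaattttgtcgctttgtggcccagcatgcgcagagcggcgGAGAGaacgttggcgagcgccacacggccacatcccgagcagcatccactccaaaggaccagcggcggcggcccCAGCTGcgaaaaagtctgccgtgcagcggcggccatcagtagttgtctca
nAChRalpha2: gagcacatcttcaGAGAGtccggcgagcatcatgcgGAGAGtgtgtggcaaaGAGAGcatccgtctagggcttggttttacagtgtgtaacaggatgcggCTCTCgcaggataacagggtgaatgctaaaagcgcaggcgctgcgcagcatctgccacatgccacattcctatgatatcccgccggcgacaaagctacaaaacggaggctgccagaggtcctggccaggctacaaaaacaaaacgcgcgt

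Over the 11 annotated TSS of the family (nAChRalpha4 has 2), GAGAG or CTCTC was found on either strand in 6 of the windows of 250 bases, namely those of nAChRalpha1, nAChRalpha2, the first TSS of nAChRalpha4, nAChRalpha7, nAChRbeta1 and nAChRbeta3. The same letters were found in 29.1% of the 19253 windows of protein-coding TSS. CAGCTG was found in 2 windows, those of nAChRalpha1 and nAChRbeta1, against 14% of all windows. The cores ACCGGTT for Grainyhead, CAGGTG for Atonal, TGATAC for Sine oculis and TATAAA for the TATA box, each searched on both strands, were found in 0 of the 11 windows and in 1.62%, 8.16%, 6.27% and 39.6% of all windows. The upstream windows of both TSS with most counts contained none of the 6 cores. The same held for nAChRalpha5, nAChRbeta2 and the second TSS of nAChRalpha4, where the listed region had 3, 2 and 6 counts. The window of nAChRbeta3, with 5 counts in its region, contained CTCTC. A relation between cores and counts was not tested. These matches are descriptions of the letters in a short window, not binding sites.

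Pooled over the family, the subunit genes had fewer counts per kb than other genes, while single members ranged widely. The regions of the family held 567 counts, or 1.75 counts per kb (1.61 to 1.90), against 2.82 in the other regions that lie in a protein-coding gene window. The ratio was 0.621 (0.570 to 0.674). The family thus had 0.408% of the listed bases and 0.287% of the counts. Of the regions, 82.3% (Wilson interval 77.4 to 86.4%) had at least 1 count in any cell, close to the 81.6% of all listed regions. Regions with at least 5 counts were 31 (11.2%), below the 16.2% of all listed regions. No count was found in 49 regions, and 3 regions reached 10 counts.

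Promoter regions of the family were denser than its distal regions, by less than in the rest of the table. The 36 promoter regions had 120 counts, 2.83 per kb (2.35 to 3.39), and 32 of them had a count, against 85.4% of all promoter regions. The distal regions had 447 counts, 1.59 per kb (1.44 to 1.74), and 81.3% of them had a count, against 80.2% of all distal regions. The promoter to distal ratio was 1.78 (1.45 to 2.19), compared with 2.32 (2.30 to 2.34) in the remaining regions. Promoters of the subunit genes themselves were 19 regions, all with a count, at 3.04 counts per kb (2.39 to 3.81). They stood at 0.693 (0.544 to 0.870) of the density of other promoter regions. Distal regions stood at 0.842 (0.766 to 0.924) of that of all other distal regions, including those outside any gene window. Against the other distal regions in gene windows, with 2.10 counts per kb, the ratio was 0.756 (0.687 to 0.829). Where only regions in no other gene window were used, the promoter to distal ratio was 1.23 with an interval from 0.886 to 1.68 that includes 1. Counts of the distal regions of the family varied 2.39 times as much as Poisson counts of the same lengths would, against 10.7 times in the other distal regions. At own promoters the value was 3.81, against 12.7 in other promoter regions. The sets compared differ greatly in size and also in density. No interval and no set of like size was computed, so a smaller spread is not shown to be a trait of the family.

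Of the single genes, nAChRbeta3 had the highest density and nAChRalpha2 the lowest. In descending order, nAChRbeta3 had 8.81 counts per kb, nAChRbeta2 3.71, nAChRalpha7 3.49, nAChRbeta1 2.77, nAChRalpha6 1.92, nAChRalpha1 1.68, nAChRalpha3 1.60, nAChRalpha5 1.50, nAChRalpha4 1.23 and nAChRalpha2 0.73. Only the step from nAChRbeta3 to nAChRbeta2, a ratio of 2.37 (1.24 to 4.75), had an interval that left out 1. The other 8 steps between neighbours in this order did not exceed counting error. Compared with the median gene, 1 member (nAChRbeta3) had at least 2 times its density, a level that 18.1% of protein-coding genes reached, and 2 members (nAChRalpha2 and nAChRalpha4) had at most 0.5 times, as did 19.8% of genes. The median percentile of the 10 members among genes was 29.3, and 7 of 10 were below the median gene. The value of 29.3 does not allow for the mix of promoter and distal regions in each window. Restricted to distal regions the median percentile was 52.2, and restricted to regions near a TSS of the gene itself it was 46.9.

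**Figure D1:**
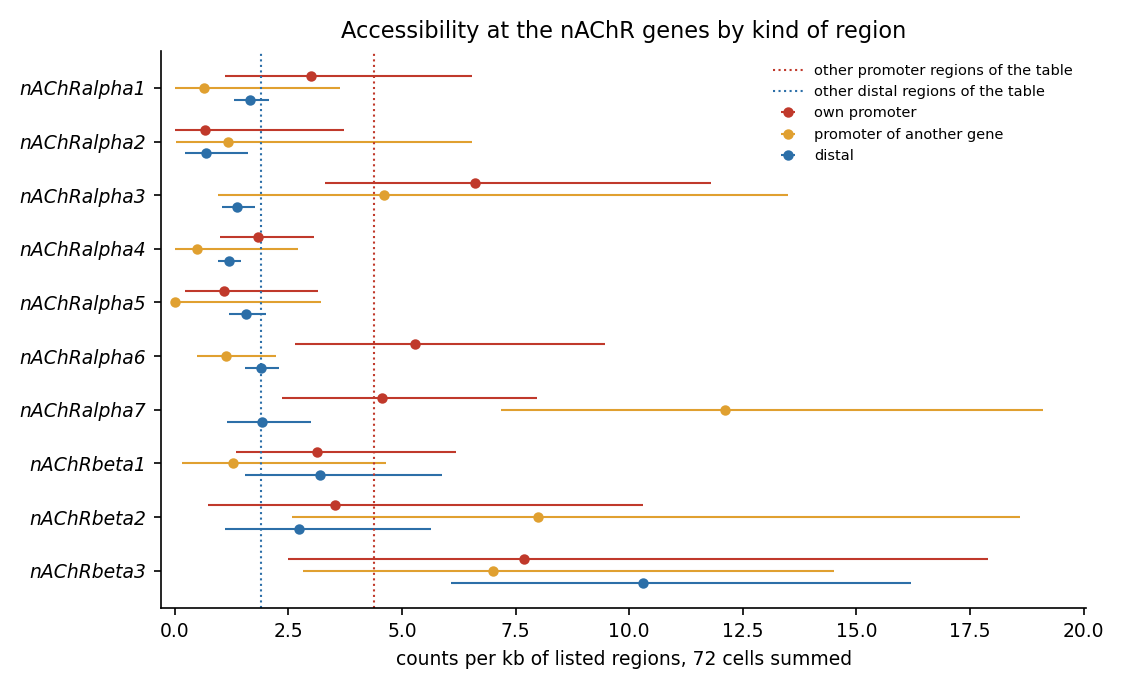
Counts per kb of listed regions (72 cells summed) at each subunit gene, split into regions within 500 bp of its own TSS, regions at the TSS of another gene, and distal regions. Bars are exact 95% Poisson intervals and dotted lines are the densities of all other promoter (4.38) and distal (1.89) regions. The own-promoter points of nAChRalpha3, nAChRalpha6, nAChRalpha7 and nAChRbeta3 lie right of the promoter line, that of nAChRalpha2 lies at 0.669, and the distal points of 5 of the 7 alpha genes lie left of the distal line.

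The alpha genes nAChRalpha1 and nAChRalpha2 and the beta gene nAChRbeta2 lie side by side on 3R. nAChRalpha1 (FBgn0000036) encodes an alpha subunit for which loss gives resistance to neonicotinoids. Its minus-strand gene occupies 24393896 to 24457157 of 3R, and its 41 regions had 80 counts in 36 cells. Its own promoter had 6 counts over 2 regions, and the distal region with most counts was an intronic region, 3R:24446688-24447793, with 6 counts in 6 cells and 5.42 counts per kb. nAChRalpha2 (FBgn0000039), 3R from 24485428 to 24491147 on the plus strand, encodes a further alpha subunit. It was at the 5.77th percentile of genes. Its window had 8 regions, of which 7 had a single count each and 1 had none, and the 7 counts came from 7 different cells. At the TSS of nAChRalpha2 the region of 1495 bp had 1 count. The whole interval from the start of nAChRalpha1 to the end of nAChRbeta2, 3R from 24393896 to 24515106, had 78 regions with 1.65 counts per kb (1.39 to 1.94), and no region there passed 7 counts. The DNA between the genes had values whose intervals overlap it, namely 1.80 counts per kb (1.32 to 2.41) between nAChRalpha1 and nAChRalpha2 and 1.84 (1.20 to 2.70) between nAChRalpha2 and nAChRbeta2.

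nAChRalpha3 and nAChRalpha4 are the next pair of long alpha genes. nAChRalpha3 (FBgn0015519), an alpha subunit gene on the minus strand of X from 8276200 to 8367169, had 75 counts in 55 regions and 34 cells. Its TSS region, X:8366692-8367635, covers the first part of the 5′ UTR and DNA upstream and had 9 counts, each in a different cell, or 9.53 counts per kb. This region was at the 81.8th percentile of promoter regions. The own promoter of nAChRalpha3 was 4.84 times (2.29 to 9.27) as dense as its distal regions, the highest such ratio of the family. Its top distal region, X:8328373-8329349, overlaps a coding exon and an intron and had 6 counts in 6 cells. nAChRalpha4 (FBgn0266347), the subunit affected in the sleep mutant redeye, lies on 3L from 23206669 to 23287448. Counts were found in 46 cells. The 14 counts at its own promoters gave 1.83 per kb and the 88 counts in distal regions 1.19 per kb, a difference within counting error. The region over its first TSS had 3 counts in 556 bp, 5.40 per kb, and that over the second TSS, used by 1 of 6 transcripts, had 6 counts in 6 cells. An intronic region of 5878 bp, 3L:23216787-23222664, had 10 counts, but 4 of them came from 1 cell and the density of 1.70 per kb was near the middle of distal regions (58.4th percentile). A second intronic region, 3L:23265127-23267012, had 6 counts, 5 of them in 1 cell.

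nAChRalpha5, nAChRalpha6 and nAChRalpha7 form the group of alpha subunits most like vertebrate alpha7, which can form receptors without a beta subunit. nAChRalpha5 (FBgn0028875), 2L from 14040170 to 14094401, had 64 counts in 36 regions and 28 cells. Its only region near its own TSS, of 2779 bp, had 3 counts, or 1.08 per kb, at the 17.4th percentile of gene promoters, and its top distal region, 2L:14067026-14068867, had 6 counts in 5 cells. nAChRalpha6 (FBgn0032151), the target of spinosad, runs from 9886250 to 9793317 on the minus strand of 2L and had the most counts of the family, in 56 cells, of which 11 lay at its own promoter and 8 at the TSS of other genes. Its TSS region, 2L:9886044-9886810, had 8 counts in 6 cells and 10.4 per kb. This region also lies within 500 bp of the TSS of the antisense-strand RNA gene lncRNA:CR44701, and these counts cannot be divided between the pair. The own promoter was 2.78 times (1.35 to 5.19) as dense as the distal regions. Besides nAChRalpha3 and nAChRalpha6, only nAChRalpha7 had an interval of this ratio above 1 (2.38, 1.05 to 5.17). Both own promoter regions of nAChRalpha6 also lie in the windows of Fkbp59 and CG4537. Of the 12 own promoter counts of nAChRalpha7, 9 lay in a region that is also in the window of the gene kek5. A region inside the gene, 2L:9815912-9816618, overlapping a coding exon and an intron 69632 bp from the TSS, had 8 counts in 7 cells. At 11.3 counts per kb it was at the 95.4th percentile of distal regions and lay in no other gene window. An intronic region 3027 bp from the TSS, 2L:9882394-9883223, also had 8 counts, in 6 cells, but it lies in the window of Fkbp59 as well.

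nAChRalpha7 (FBgn0086778), a subunit of the giant fibre escape circuit, occupies 19327075 to 19348447 on the minus strand of X. Its 17 regions had 49 counts in 31 cells, 3.49 per kb (2.58 to 4.62), and most of them lay outside the gene. The region over the TSS itself had 1 count, whereas the next region, X:19348863-19349542, which starts 416 bp upstream, had 9 counts in 9 cells and 13.2 per kb (88.6th percentile of promoter regions). Further upstream, X:19352781-19353539 had 17 counts (9.90 to 27.2) in 14 cells, the most of any region of the family, and 22.4 per kb. This region lies at the TSS of kek5, which encodes a transmembrane protein of the Kekkon family and is transcribed away from nAChRalpha7. Without the regions that lie in the window of another gene, nAChRalpha7 had 13 counts and 1.75 per kb. Among its distal regions the intronic X:19338698-19339337 had 5 counts in 3 cells (7.81 per kb), and X:19326764-19327981 at the 3′ UTR also had 5 counts, in 4 cells (4.11 per kb).

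The 3 beta genes are short and crowded by neighbours, and their density of 4.43 counts per kb (3.42 to 5.65) was above the 1.62 (1.49 to 1.77) of the 7 alpha genes. All but 2 of their 15 regions also lie in windows of other genes. nAChRbeta1 (FBgn0000038), the beta subunit found in most insect receptors, lies on 3L from 4429349 to 4435993. Its TSS falls in no listed region, and the promoter region nearest to it, 3L:4429843-4432386, starts 494 bp downstream and had 8 counts in 8 cells. The other region with at least 5 counts, 3L:4426361-4428265, lies upstream and had 5 counts in 4 cells. All 5 regions of nAChRbeta1 also lie in windows of other genes. nAChRbeta2 (FBgn0004118), a beta subunit for which loss gives neonicotinoid resistance, lies on 3R from 24509228 to 24515106. It had 15 counts in 6 regions, of which the TSS region, shared with the TSS of the divergent gene DZIP1, had 2. A further 5 counts, in 4 cells, lay at the TSS of Pp1alpha-96A, which encodes a catalytic subunit of protein phosphatase 1. The distal region 3R:24512387-24513611 had 5 counts in 5 cells. Outside other gene windows nAChRbeta2 kept 2 regions with 2 counts.

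nAChRbeta3 (FBgn0031261), a divergent beta subunit, spans 2L from 545129 to 547096 and had 30 counts in 4 regions and 17 cells. All 4 regions also lay in windows of other genes and 3 of the 4 lay wholly upstream. The region with most counts, 2L:540016-541052, had 15 counts (8.40 to 24.7) in 11 cells. Its 14.5 counts per kb exceed those of 96.8% of distal regions. It overlaps a coding exon and 3′ UTR of ush, a zinc finger cofactor of GATA factors, and the 3′ UTR of lwr, the SUMO-conjugating enzyme. The region at the TSS of lwr had 7 counts in 4 cells. The TSS region of nAChRbeta3 had 5 counts in 5 cells, 7.68 per kb, and also contains the TSS of Spp, a signal peptide peptidase transcribed in the other direction. nAChRbeta3 stood at the 94.3th percentile of genes, and in its window the counts of the family member and of its neighbours cannot be told apart.

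**Figure D2:**
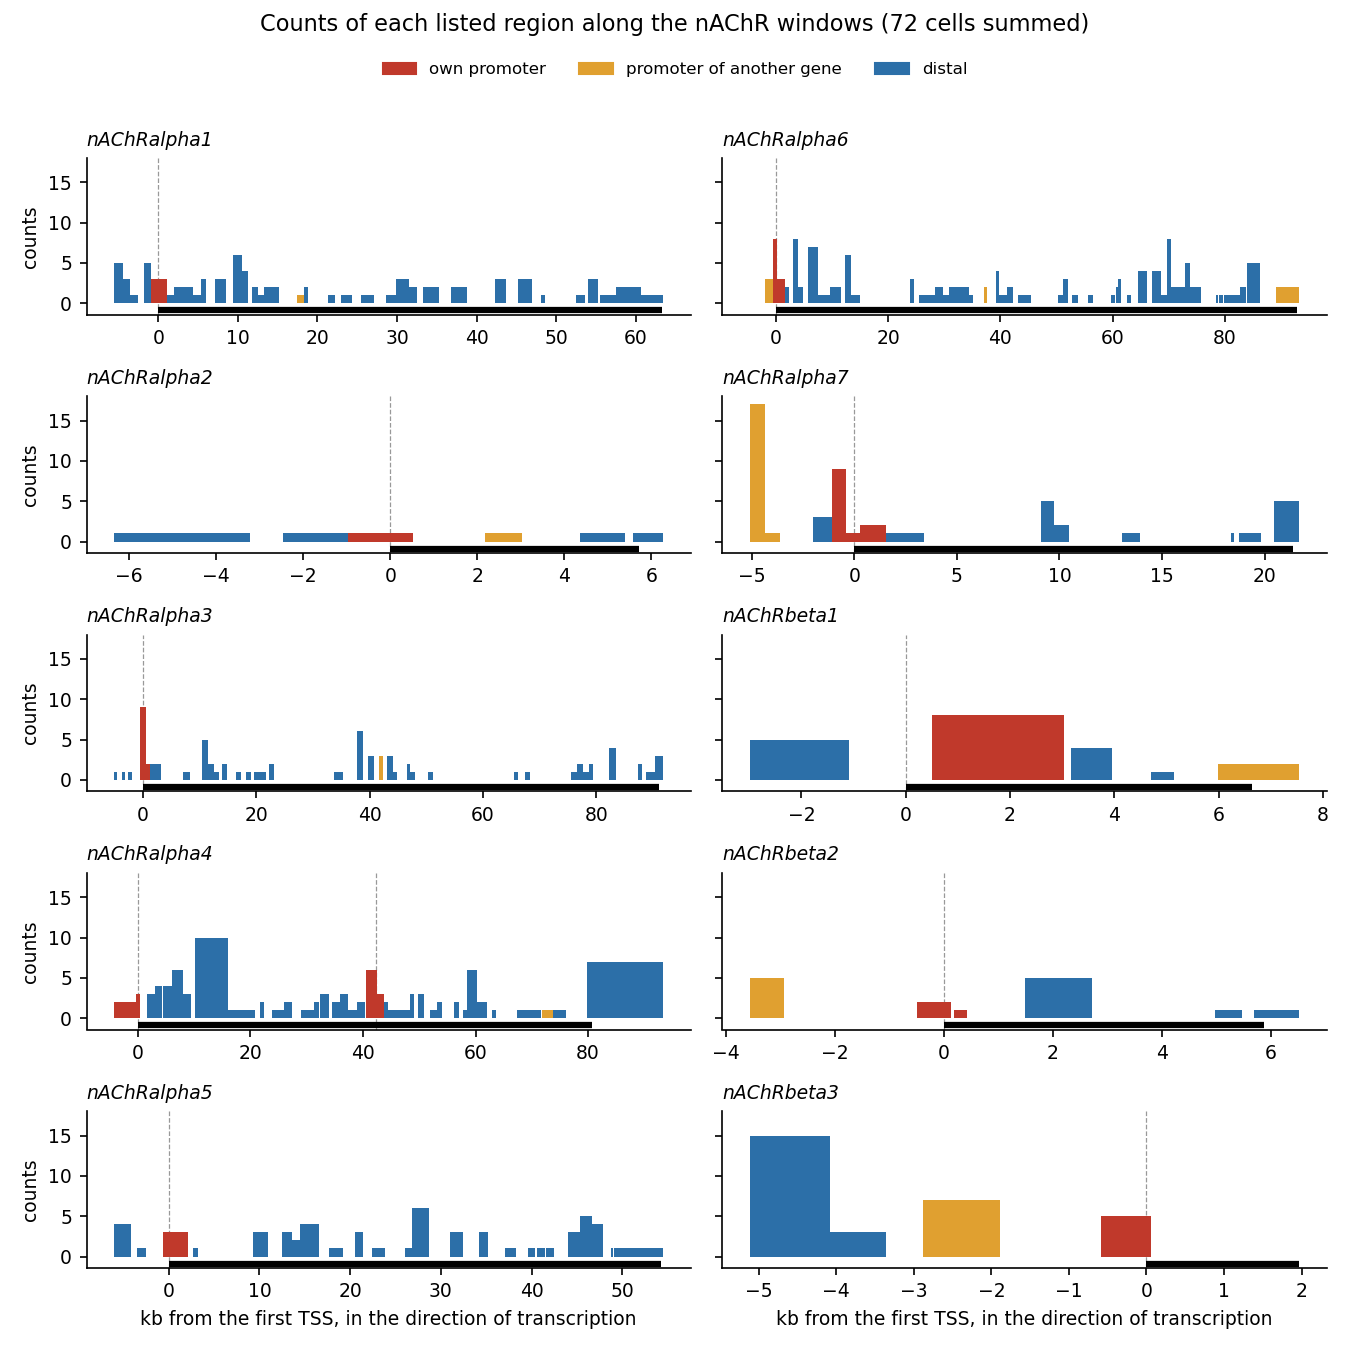
Counts of each listed region (72 cells summed) along the window of each subunit gene, in kb from its first TSS in the direction of transcription. The bar width is the region length, the black line is the gene and dashed lines are its annotated TSS. The 2 tallest bars, 17 and 15 counts, lie upstream of nAChRalpha7 and nAChRbeta3, while bars inside the long genes stay at 10 counts or fewer.

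Pooled over the family, regions shared with other genes were denser than unshared regions. The 39 regions that also lie in another protein-coding gene window had 3.40 counts per kb (2.85 to 4.03), and the regions that lie in none had 431 counts and 1.52 per kb (1.38 to 1.67). Within single genes only nAChRalpha7 had intervals that did not overlap, with 5.46 counts per kb (3.82 to 7.56) against 1.75 (0.932 to 2.99). The shared regions were also denser in nAChRalpha6, at 2.87 (1.89 to 4.18) against 1.76 (1.43 to 2.15). In nAChRbeta2 the values were 4.81 (2.56 to 8.22) and 1.5 (0.181 to 5.4). Both of these pairs of intervals overlap. All regions of nAChRbeta1 and nAChRbeta3 are shared, so these genes give no such comparison. In nAChRalpha1, nAChRalpha3 and nAChRalpha5 the shared regions had 0.572, 1.34 and 0.846 counts per kb and the unshared regions 1.72, 1.62 and 1.60, with overlapping intervals. The 5 members longer than 50 kb (nAChRalpha1, nAChRalpha3, nAChRalpha4, nAChRalpha5 and nAChRalpha6) had 0.494 times (0.404 to 0.609) the density of the 5 shorter members, and 0.630 times (0.478 to 0.843) over distal regions alone. In regions that lie in no other gene window the direction turned, with 1.54 counts per kb (1.40 to 1.70) in the long and 1.20 (0.751 to 1.81) in the short members and a ratio of 1.29 (0.838 to 2.08), an alternative added after seeing the data. Among genes with at least 30 listed regions the long members stood at percentiles from 7.31 (nAChRalpha4) to 31.5 (nAChRalpha6). In the long members, distal density inside and just past the gene was 1.95 counts per kb (1.51 to 2.47) over the first 10 kb from the first TSS, 1.54 (1.25 to 1.89) from 10 to 30 kb, 1.47 (1.23 to 1.74) from 30 to 60 kb and 1.17 (0.920 to 1.47) from 60 to 100 kb, where 4 of these genes have regions. Of these intervals, only those of the nearest and the farthest stretch do not overlap. The farthest stretch includes a region of 13480 bp with 0.519 counts per kb, most of it past the end of nAChRalpha4. The value of that stretch without this region was not computed, so the separation may depend on it. Distal regions that overlap a 3′ UTR of a member had 36 counts in 22 regions and 0.895 per kb (0.627 to 1.24). The values were 1.67 (1.47 to 1.89) in distal regions of introns alone and 1.59 (1.30 to 1.93) in those with a coding exon and no 3′ UTR. Without the longest region, 13480 bp that lie mostly past the end of nAChRalpha4, the value at 3′ UTRs was 1.08 (0.726 to 1.56), and its interval then overlaps both. The GC content of the members' regions, with a median of 40.7%, was close to the 40.6% of all regions.

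The other genes of cholinergic transmission were as sparsely covered as the receptor subunits. The enzymes, transporters and muscarinic receptors of acetylcholine signalling had 1.75 counts per kb over 7 genes, and the ratio of the subunits to them was 0.998 (0.831 to 1.21). Of these genes 0 of 7 lay above the median gene. Within this list mAChR-A, a muscarinic receptor, was highest at 2.77 per kb and mAChR-C was lowest at 0.355, from 1 count. ChAT, which makes acetylcholine, and VAChT, which loads it into vesicles, had 1.43 and 1.40 (both chosen after their values were seen). Both genes share a locus, and all regions of VAChT are also regions of ChAT, so these values are not separate. The 4 genes for proteins that assemble or modulate nicotinic receptors ranged from Unc50, a trafficking protein (1.56), to RIC-3, a chaperone of receptor assembly (2.81). The ratio of subunits to these genes was 0.898 (0.656 to 1.26).

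Genes for other channels and for synapses mostly lay below the median gene as well, with 3 of 12 other Cys-loop channels, 3 of 13 ionotropic glutamate receptors, 2 of 12 synaptic genes and 2 of 9 voltage-gated channels above it. The 12 other Cys-loop channel genes, relatives of the nicotinic subunits gated by other transmitters, had a list median of 1.88, and the subunits stood at 1.04 times (0.893 to 1.21) their pooled density. In that list CG6927 was highest at 5.01, and Lcch3, a subunit of GABA-gated channels, had 0 counts in 4 regions, as did CG8916 in 2 regions. For Lcch3 the exact interval reaches 1.21 counts per kb, and 3 counts, the one-sided limit for a count of 0, would be 0.982 per kb. The 13 ionotropic glutamate receptor genes, from GluRIIC (0.489) to GluRIIE (4.72), had a median of 2.0 and a ratio of 0.997 (0.843 to 1.18). The 12 genes of synaptic vesicles and active zones, from Snap25 (0.534), a fusion protein, to Rbp (3.89), a scaffold protein, had a median of 1.78, and the subunits were 1.49 times (1.32 to 1.69) as dense when regions were pooled. This ratio rested on the long window of Snap25, without which it was 0.934 (0.817 to 1.07). The 9 voltage-gated channel genes, from slo (1.02) to eag (3.01), both potassium channels, had a median of 1.31 and a ratio of 1.13 (1.00 to 1.28).

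Genes of early neuronal differentiation were denser than the receptor genes. Their 10 genes, from pros (2.09), a homeodomain factor, to chp (6.14), a photoreceptor cell surface protein, had a median of 2.56 and 844 counts, so that the subunits had 0.658 times (0.591 to 0.733) their pooled density. These genes were not dense among all genes, since 4 of 10 lay above the median gene and their median was below its 2.81. The difference was seen at both kinds of region, with ratios of 0.685 (0.514 to 0.907) at own promoters and 0.706 (0.623 to 0.800) at distal regions. Against markers of R8 and the furrow, from boss (1.79), the ligand of Sevenless, to sens (10.9), the ratio was 0.332 (0.290 to 0.381), and against photoreceptor markers, from elav (4.92), a neuronal RNA-binding protein, to gl (15.6), a zinc finger factor of photoreceptor fate, it was 0.216 (0.183 to 0.256). The sort used a sens enhancer, so the value of sens is not independent of it, and elav and chp are in both the early neuronal and the photoreceptor list. At own promoters, the 3.04 counts per kb of the subunits lay above the intervals of other Cys-loop channels (1.29, 0.865 to 1.85) and of voltage-gated channels (1.48, 1.08 to 1.97), and inside that of ionotropic glutamate receptors (2.15, 1.46 to 3.05). Distal densities of the subunits and these 3 lists were 1.59, 1.42, 1.36 and 1.36.

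**Figure D3:**
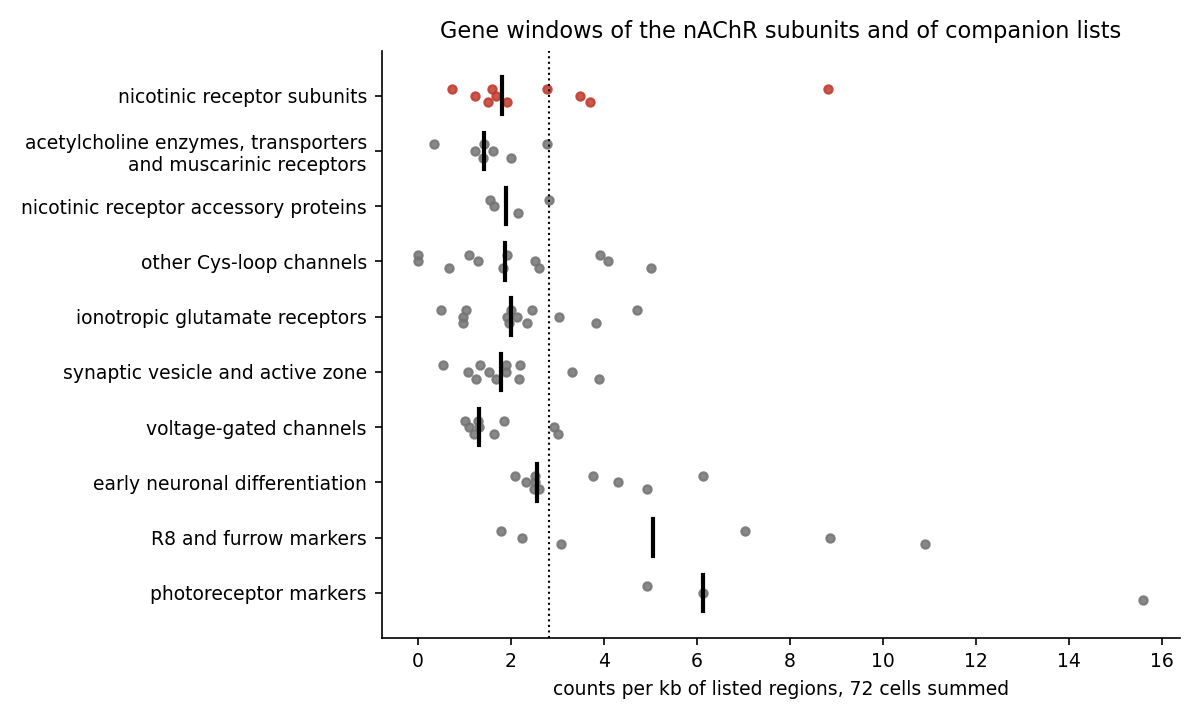
Counts per kb of listed regions in the window of each gene (points, 72 cells summed), by list. Black bars are list medians and the dotted line is the median of all protein-coding genes (2.81). The subunits lie from 0.73 to 8.81 with a median of 1.80, near the medians of the channel and synapse lists and below the R8, furrow and photoreceptor markers.

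Counts of the family were spread over all cells and were sparse in each. Each of the 72 cells had at least 1 count in a region of the family, with a lowest value of 1, a median of 6 and a highest of 34. As a share of the counts of a cell this was 0.0483 to 0.811%, with a median of 0.251%. A median of 4 members had a count in a cell, at most 8 did, and 0 cells had a count at all 10. By member, cells with a count ranged from 7 (nAChRalpha2) to 56 (nAChRalpha6), and the median cell had 1 count at nAChRalpha4 and nAChRalpha6 and 0 at each other member. Of the 485 entries above 0 at single regions, 417 (86%) were equal to 1. Cells with more counts overall had more in the family (Pearson r = 0.538 over 72 cells of 1 sort, as a description).

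A pair of cells held 11.1% of the counts of the family, all at long alpha genes. The deepest cell, with 5892 counts, had 34 counts in the family, 14 of them at nAChRalpha5, and the cell with the next highest value had 29 counts, 10 of them at nAChRalpha1 and 10 at nAChRalpha4. The highest value in any other cell was 16. These counts lay in 26 and 21 different regions and none lay at nAChRalpha2, nAChRalpha7 or a beta gene. In the deepest cell 25.1% of all counts were on 2L and 28.2% on 2R, against 17.4% and 20.0% over all cells, and in the other cell 38.9% were on 3R, against 23.6%. The family had 0 counts on 2R in either cell. It also had counts on arms with a low share. The deepest cell had 8 on 3R, at 12.7% against 23.6%, and the other cell 10 on 3L, at 17.4% against 20.3%. A relation between arm shares and family counts was not tested. Without these 2 cells the family had 504 counts and 1.56 per kb (1.42 to 1.70), with 62 counts at nAChRalpha1 and 48 at nAChRalpha5 in place of 80 and 64. The ratio to the early neuronal genes was then 0.602 (0.538 to 0.674). Over all cells the counts of the family varied 2.67 times as much as Poisson counts at the depth of each cell, so the intervals above understate how far cells differ.

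**Figure D4:**
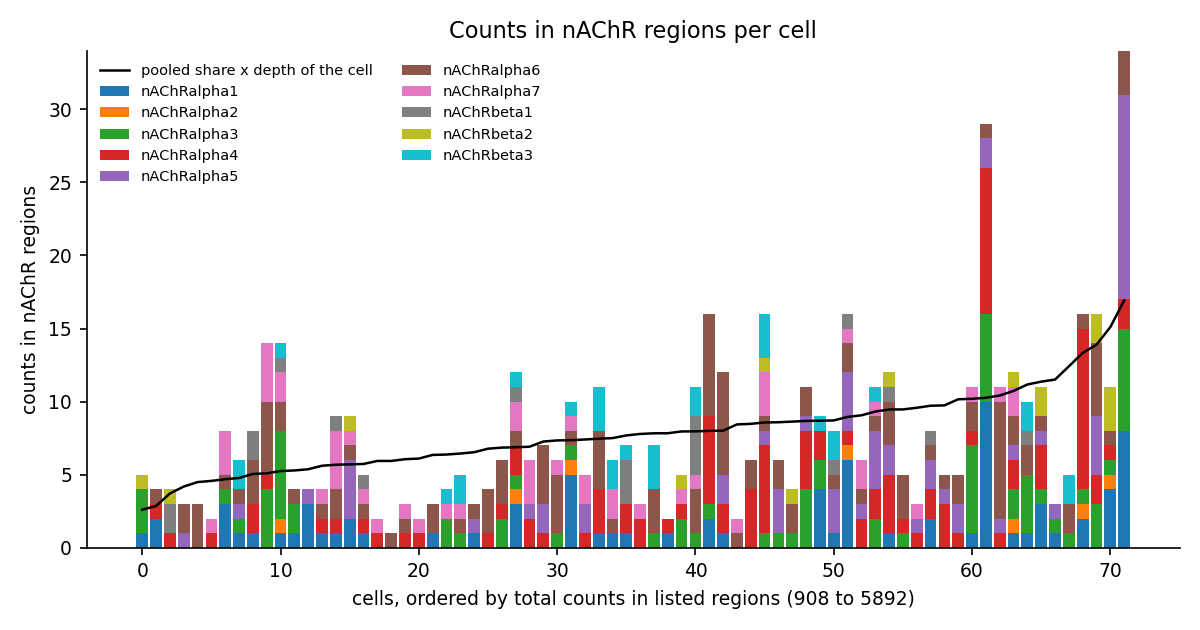
Counts in regions of the subunit genes in each of the 72 cells, coloured by member, with cells ordered by their total counts (908 to 5892). The black line is the pooled share of the family (0.287%) times the depth of the cell. The tallest bars, 34 and 29, stand above this line and are made of nAChRalpha1, nAChRalpha3, nAChRalpha4, nAChRalpha5 and nAChRalpha6.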

How the data were processed

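Single cells were sorted and profiled on the Fluidigm C1 as described by the study, and the values deposited by the authors are whole-number counts, not normalised, for each cell in each cisTarget region (a segment of non-coding genome set by cross-species conservation). In the study's methods, adapters were trimmed with fastq-mcf, reads were mapped with Bowtie2 2.2.5 to FlyBase release 6 (dm6), duplicates were removed per cell with picard, and cells were selected by hand. The submitters' processing notes also name FastQC 0.1 and SAMtools 1.2. Beads removed library fragments under 150 bp after amplification, which can lower counts from the shortest inserts. The counting tool, a shift of reads for Tn5 and whether reads or fragments were counted are not given in the sources used here. Of 384 labelled cells, the table holds 72, all in 1 group, and the others were not analysed here. Every column matched 1 title and 0 columns were unused.

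Regions were joined to Ensembl release 115 genes of the same assembly, after the ends of the arms were compared, with coordinates counted from 1. The family had 277 regions over 324 kb, of which 228 had a count and 101 had exactly 1. Of the 241 distal regions 196 had a count, and 238 regions lay in no other gene window. nAChRalpha4 had 103 counts and nAChRalpha6 had 124. Whole regions overlapping a gene or the 5 kb upstream of its TSS were used, so a region can enter several genes (40.4% of regions in windows do). Counts have exact Poisson intervals, shares Wilson intervals and ratios of densities exact conditional binomial intervals, all at 95%. These reflect the error of independent counts alone. Amplified reads carried no molecular identifiers and need not be independent, so the intervals can be too narrow even for counting error. Interval functions were run on simulated Poisson counts only. That checks the code and not how the intervals perform on the real counts, which vary more than Poisson counts. Python 3.11.15, NumPy 2.4.6, pandas 2.3.3 and SciPy 1.17.1 were used.

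The members and the 13 lists were chosen with earlier results of these data known. Genes and regions were named by rule: all members, the genes with most and fewest counts per kb of each companion list, genes with a TSS in a shared region of at least 5 counts, the promoter and distal region with most counts of each member, and every member region with at least 10 counts. Further regions named beside them were chosen after their values were seen. CG5027, CG9773 and CG12344 were matched under other names (Tmx3, Unc50 and alka). Alternatives covered the window, overlap, region length, promoter distance, shared regions, depth and single cells. The choices to leave out 2 cells, single genes of a list or the longest distal region, and to compare long with short members in unshared regions, were made after seeing the data.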

Additional observations from a re-analysis of the deposited data

How the results depend on the processing

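The 5 main results were recomputed under 55 alternatives, and 43 of these values stayed within the interval of the main value. The density of 1.75 counts per kb was 1.50 with each region counted once per cell, 1.52 with only regions in no other gene window, 1.60 in gene bodies, 2.75 within 1 kb of a TSS, 1.20 per kb of window and 1.56 without the 2 cells with most counts, a choice made after seeing the data. Without these cells 76.5% of regions had a count. The promoter to distal ratio was 1.23 in regions in no other gene window, with an interval that includes 1. The median percentile was 41.1 in those regions, 48.7 per kb of window, 52.2 in distal regions and 46.9 in regions within 500 bp of a TSS of the gene, against 29.3, so that over distal regions alone the median member was slightly above the median gene. Of 98 values for single members 6 moved, all to lower values: nAChRalpha4 to 0.969 with each region counted once per cell, nAChRalpha7 to 1.75 and nAChRbeta2 to 1.50 outside other gene windows, nAChRalpha7 to 2.03 in the gene body, and nAChRalpha1 to 1.30 and nAChRalpha5 to 1.1 without the 2 cells. Of 60 list medians 4 moved. No paired analysis was possible because all cells belong to 1 group. Causes of these shifts were not tested beyond the construction of each alternative. At this depth the median region of the family had 1 count, so the order of single regions is a description of counts with wide, mostly overlapping intervals.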
